A study of Mus musculus with 2 samples.

Results

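In parathyroid glands that stem cells had formed in mice, a minority of the hormone-producing cells carried little or no Gfp transcript. The cells described are the Gfp-low parathyroid cells of replicate 2. They are 156 of 2243 parathyroid cells and 156 of the 3319 cells kept in that library, out of 4578 kept in both libraries. A cell was kept with at least 500 genes detected, under 15% mitochondrial UMIs and under 5% haemoglobin UMIs. A UMI, a unique molecular identifier, stands for 1 captured RNA molecule. Parathyroid cells were those with at least 5% of their UMIs from Pth, the parathyroid hormone gene. Gfp-low cells were selected on fewer than 300 Gfp CPM (UMIs of the gene per 1000000 UMIs of the cell), and they were set against the 1797 Gfp-high parathyroid cells with at least 1000 CPM. The 290 cells in between form a middle class.

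The study measured RNA in single cells of 2 pools of glands by droplet sequencing. Every host was a Gcm2-/- mouse on a BDF1B6 background, complemented with Pth-tdTomato mouse embryonic stem cells, and Gfp-low and Gfp-high cells of a replicate come from the same pool of such mice. The 5 mice of replicate 2 were 6 to 13 weeks old, with a blood chimerism of 60 to 70%. The 3 mice of replicate 1 were 9 to 12 weeks old, with 50 to 70%, and males and females were present in either pool. No label says what Gfp marks or which cell came from which mouse, so the Gfp class and the animal of origin cannot be told apart within a library. Blood chimerism means that hosts keep some cells of their own in tissues other than the one they cannot form.

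Parathyroid cells secrete parathyroid hormone when blood calcium falls. They read calcium through the receptor encoded by Casr, store hormone in granules rich in chromogranin A, the product of Chga, and depend on the transcription factor Gcm2 for their formation. A host without Gcm2 forms no gland of its own, and in complementation the supplied stem cells fill that place. A reporter driven by the Pth promoter, here tdTomato, labels the cells that transcribe the hormone gene.

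Replicate 2 comprised 88283761 UMIs over 3518 barcodes, and replicate 1 comprised 41517620 UMIs over 1406. The filters left out 199 and 147 of them, and 3 barcodes occurred in both libraries. The summed RNA of Gfp-low cells came to 4762294 UMIs, against 57626008 UMIs in Gfp-high cells. With 1 library there is no test between the classes: values are CPM of the summed class, and 95% intervals cover counting error only, not the differences between mice or between cells.

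Gfp-low cells were found almost entirely in replicate 2. They made up 6.95% of parathyroid cells there (exact binomial 95% interval 5.94 to 8.09), while replicate 1 had 2 such cells among 673, or 0.297% (0.0360 to 1.07). The share under 1000 CPM, which adds the middle class, was 19.9% (18.3 to 21.6) in replicate 2 and 6.39% (4.66 to 8.51) in replicate 1. The libraries are separate pools, and the difference between them has no replicate of its own.

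**Figure D1:**
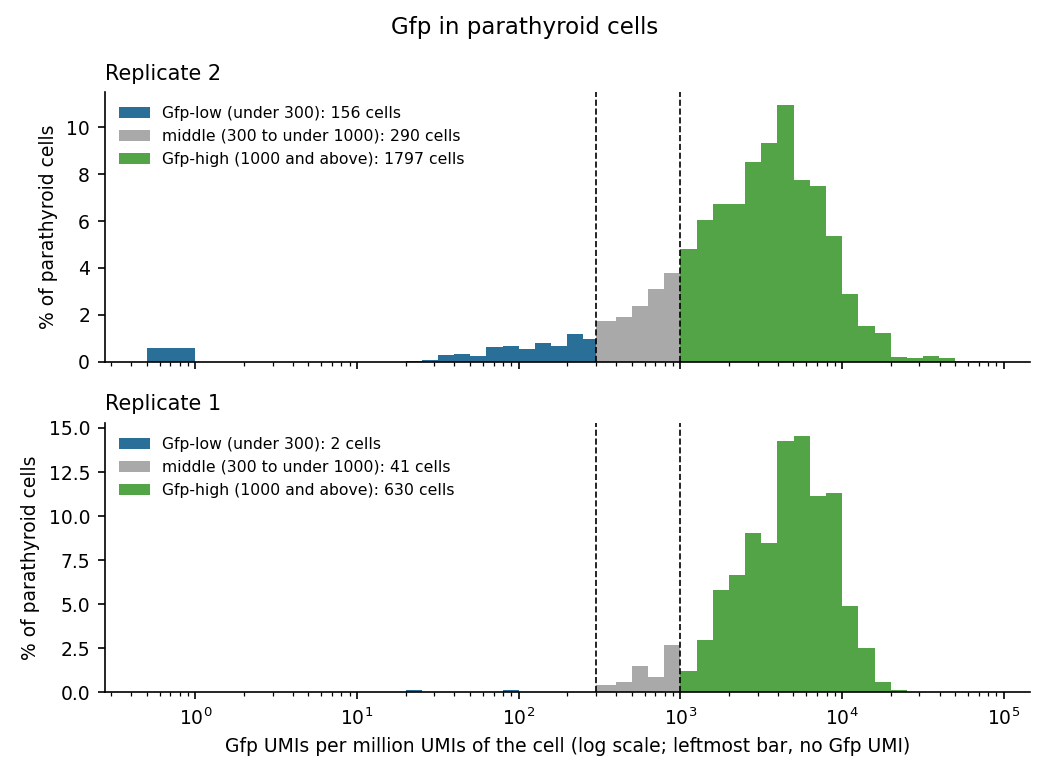
Gfp CPM in each parathyroid cell (log axis) against the percentage of parathyroid cells, for replicate 2 above and replicate 1 below; dashed lines mark 300 and 1000 CPM, and the leftmost bar holds cells with no Gfp UMI. The 156 Gfp-low cells of replicate 2 form a thin left tail of 1 broad distribution, and replicate 1 has 2 such cells.

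The tail had no gap at the limits that define it. The cells nearest the lower limit lay at 291 and 303 CPM, with 22 cells within 50 below it and 15 within 50 above it. The cells nearest the upper limit lay at 999 and 1006 CPM. Counts ran without a break from 48 cells at 200 to 300 CPM to 40 cells at 300 to 400. No Gfp UMI at all was seen in 13 of the 156 Gfp-low cells (8.33%), whose median was 23791 UMIs per cell, and in 0 of the 1797 Gfp-high cells. The median Gfp-low cell had 4 Gfp UMIs, so a single cell's place near the limit is known only roughly.

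Other cell types of the same library were more often without Gfp. Among the 1076 cells of replicate 2 below 5% Pth, 224 (20.8%) had no Gfp UMI and 473 (44.0%) lay under 300 CPM, at a median of 14322.5 UMIs per cell.

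The transcripts that define the gland stood at nearly the same level in Gfp-low and Gfp-high cells. Pth took a median 15.4% of UMIs in Gfp-low cells and 15.9% in Gfp-high cells; it was used to choose the cells and is given as a description. Chga stood at 76210 CPM in Gfp-low cells and 76222 CPM in Gfp-high cells. Gcm2 stood at 155 CPM (144 to 167) in Gfp-low cells and 158 CPM (154 to 161) in Gfp-high cells. As a measure of free RNA, Gcm2 had a UMI in 96.2% of cells of either class and in 5.30% of the cells below 5% Pth, where it came to 4.92 CPM.

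The second reporter was not missing from these cells. tdTomato was found in every Gfp-low cell, at 4176 CPM in the lowest, 10532 in the median and 20688 in the highest cell, and the median Gfp-high cell had 10742. Pooled, tdTomato stood at 10627 CPM (10535 to 10720) in Gfp-low cells and 11044 CPM (11017 to 11071) in Gfp-high cells, a log2 ratio of -0.06. The classes overlapped over nearly their whole range. The cells below 5% Pth averaged 152 tdTomato CPM. The median number of tdTomato UMIs per Pth UMI was 0.0677 in Gfp-low cells and 0.0695 in Gfp-high cells.

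**Figure D2:**
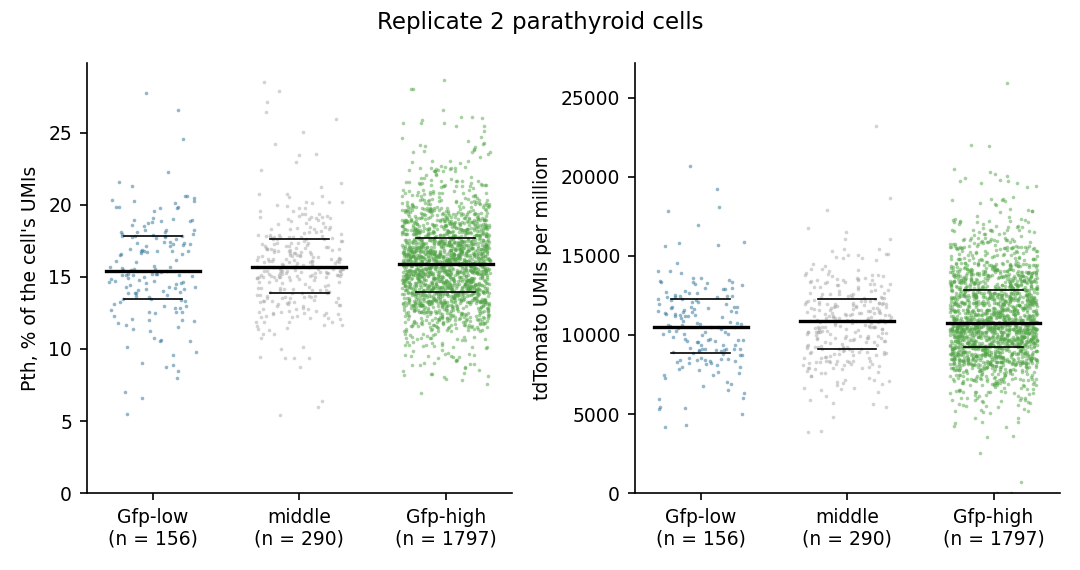
Pth as a percentage of UMIs (left) and tdTomato CPM (right) in each parathyroid cell of replicate 2, by Gfp class; points are cells, long lines medians and short lines quartiles. The 3 classes overlap in both measures, with median Pth at 15.4% in Gfp-low and 15.9% in Gfp-high cells.

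Cell quality was alike in both classes. Gfp-low cells had medians of 30442.5 UMIs, 5582.5 genes and 3.34% mitochondrial UMIs, against 30528 UMIs, 5641 genes and 3.30% in Gfp-high cells. After thinning to 10000 UMIs, which left out 6 Gfp-low and 50 Gfp-high shallower cells, the median was 3112 genes in Gfp-low cells and 3094 in Gfp-high cells. Doublet scores of at least 0.25 were found in 2.56% of Gfp-low and 2.84% of Gfp-high cells.

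Across the transcriptome the classes differed little. Among 7976 autosomal and reporter genes with a mean of both classes of at least 10 CPM, the median log2 ratio was 0.02, and 7914 genes (99.2%) lay within 1.5-fold. A gene was counted past 1.5-fold where its interval excluded 1 and the difference remained without the cell of most UMIs in each class. That left 17 genes higher in Gfp-low cells, 0.213% of those tested, and 16 lower, 0.201%. Before that last step 62 genes lay past 1.5-fold, and all 29 that were lost were higher in Gfp-low cells. The step takes 1 of 156 Gfp-low cells and 1 of 1797 Gfp-high cells. It therefore removes genes raised by few Gfp-low cells more readily than genes raised by few Gfp-high cells. The near-equal counts of 17 and 16 depend on it. Of the 29 lost genes, 12 had their highest count in the same single cell.

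**Figure D3:**
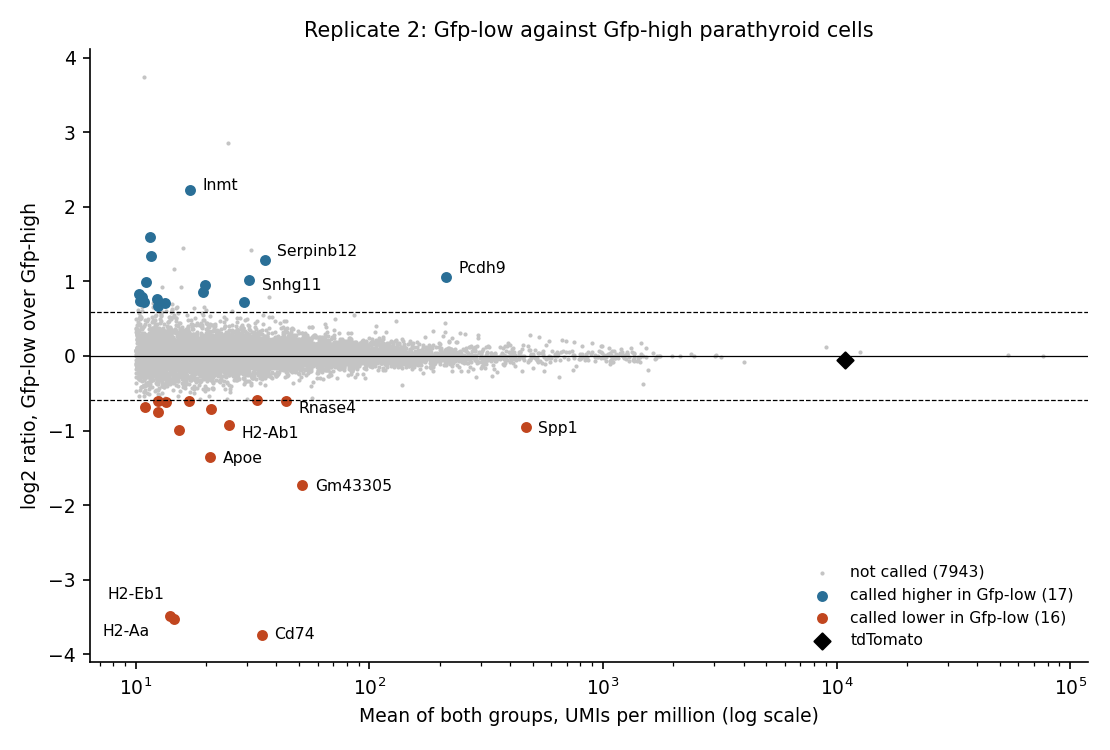
Log2 ratio of Gfp-low over Gfp-high cells in replicate 2 against the mean level of both classes in CPM (log axis), with 1 point per gene; dashed lines mark 1.5-fold. Most genes lie near 0, tdTomato included, and Spp1 and Pcdh9 are the most abundant of the named genes past 1.5-fold.

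That single Gfp-low cell held 649 UMIs of 8 fibroblast markers together with at least 5% Pth. The genes it led included the collagen genes Col1a1 and Col3a1, Lum, which encodes the matrix proteoglycan lumican, the growth factor genes Igf1 and Fgf10, and the axon guidance gene Slit3. Col3a1 stood at 45.1 CPM in Gfp-low cells and 16.9 CPM in Gfp-high cells, and 195 of the 215 Gfp-low UMIs came from 1 cell. The fibroblast markers summed to 231 CPM in Gfp-low cells and 136 in Gfp-high cells; without the 3 Gfp-low and 28 Gfp-high cells that had at least 20 such UMIs, the sums were 19.8 and 18.6 CPM. None of the 5 fibroblast markers tested counted as past 1.5-fold.

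Spp1 was the most abundant gene that was lower in Gfp-low cells. It encodes osteopontin, a secreted phosphoprotein that binds integrins, and lies on chromosome 5 from 104435118 to 104441050 (mm10). Single Gfp-low cells ranged over 0, 2 and 144 UMIs (lowest, median, highest), and Gfp-high cells over 0, 4 and 510. Pooled, Spp1 stood at 317 CPM (302 to 334) in Gfp-low cells and 615 CPM (608 to 621) in Gfp-high cells, a log2 ratio of -0.95.

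The share of cells with much Spp1 differed more than the share with any. At least 10 Spp1 UMIs were found in 24.4% of Gfp-low cells and 39.6% of Gfp-high cells, while at least 1 UMI was found in 71.2% and 72.8% of them. After thinning to 10000 UMIs per cell, 48.7% of Gfp-low and 60.3% of Gfp-high cells had a Spp1 UMI. In the cells below 5% Pth, 9.76% had one.

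Spp1 followed the Gfp level beyond the 2 classes. In replicate 2 it was 308, 324, 282, 404 and 676 CPM in cells with under 100, 100 to 300, 300 to 1000, 1000 to 2000 and at least 2000 Gfp CPM. Levels were flat up to 1000 and higher in the 2 classes above it. In replicate 1 it was 314, 280 and 458 CPM in the last 3 of these classes, so its highest Gfp class also had the most Spp1.

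**Figure D4:**
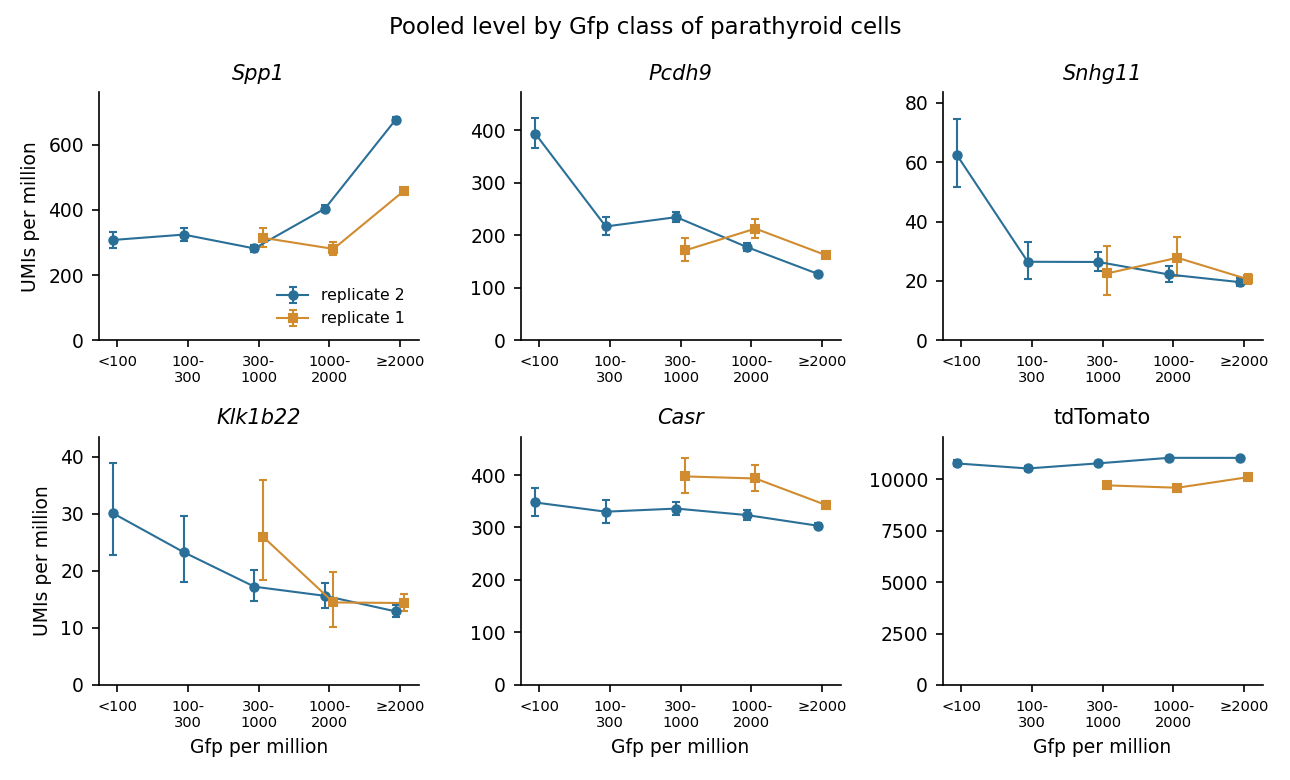
Pooled CPM of 6 genes by Gfp class of parathyroid cells, in replicate 2 (circles) and replicate 1 (squares); bars are exact 95% Poisson intervals for counting error, and classes of fewer than 20 cells are left out. Spp1 is highest at 2000 Gfp CPM and above in both replicates, Pcdh9 and Snhg11 are highest under 100 in replicate 2, and tdTomato is nearly level.

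Pcdh9 was the most abundant gene that was higher in Gfp-low cells. It encodes a protocadherin, a cell adhesion protein, and lies on chromosome 14 from 93013410 to 93890679 (mm10). Gfp-low cells had 0, 0 and 151 Pcdh9 UMIs (lowest, median, highest), and Gfp-high cells had 0, 0 and 149. Pooled, it stood at 288 CPM (273 to 304) in Gfp-low cells and 138 CPM (135 to 141) in Gfp-high cells, a log2 ratio of 1.06.

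More Gfp-low cells carried Pcdh9. A UMI was found in 47.4% of Gfp-low and 35.9% of Gfp-high cells, and in 11.9% of cells below 5% Pth. Across the 5 Gfp classes of replicate 2 it was 393, 217, 234, 177 and 127 CPM. Replicate 1 did not share this order, with 171, 213 and 162 CPM in its last 3 classes.

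Snhg11, a noncoding host gene of small nucleolar RNAs, stood at 40.9 CPM in Gfp-low cells and 20.2 CPM in Gfp-high cells (log2 ratio 1.02). A Snhg11 UMI was found in 37.8% of Gfp-low and 23.1% of Gfp-high cells, against 1.39% of cells below 5% Pth. The cells with under 100 Gfp CPM stood apart, with 62.3 CPM of Snhg11 against 19.6 to 26.5 in the other classes.

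Klk1b22 belongs to the tissue kallikreins, a cluster of secreted proteases with near-identical copies among which reads may be split, so its value is uncertain. It stood at 26.04 CPM in Gfp-low cells and 13.5 CPM in Gfp-high cells, a log2 ratio of 0.95. Its level over the Gfp classes of replicate 2 was 30.1, 23.3, 17.2, 15.6 and 12.9 CPM. In replicate 1, cells under 1000 had 25.4 and cells at or above 1000 had 14.4 CPM.

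Synpo2, which encodes an actin-binding protein, and Nav3, a neuron navigator gene, complete the named genes that were higher. Synpo2 stood at 25.0 CPM in Gfp-low and 13.8 in Gfp-high cells, and Nav3 at 36.3 in Gfp-low and 21.95 in Gfp-high cells. Over the Gfp classes of replicate 2 Synpo2 was 18.2, 29.6, 11.8, 14.6 and 13.6 CPM, highest at 100 to 300. In replicate 1 neither was higher under 1000 Gfp CPM: Synpo2 had 18.7 under and 19.3 at or above, and Nav3 26.8 and 32.1.

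Serpinb12, a serine protease inhibitor gene, was higher at 50.6 CPM in Gfp-low cells and 20.8 CPM in Gfp-high cells, but few cells carried it. A UMI was found in 8.33% of Gfp-low and 6.79% of Gfp-high cells, and 5 cells held 82.6% of the Gfp-low UMIs. Inmt and Csrp2, with larger ratios, rested on fewer cells still: 5 cells held 99.3% of the Gfp-low UMIs of Inmt and 97.6% of those of Csrp2. These 3 genes were singled out after their values were seen.

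Tgfb1 and Lrrk1 were lower in Gfp-low cells, and their UMIs were spread over many cells: 5 cells held 3.75% of the Gfp-high UMIs of Tgfb1 and 6.58% of those of Lrrk1. Tgfb1 encodes a secreted growth factor and stood at 13.4 CPM in Gfp-low cells and 20.4 CPM in Gfp-high cells; 34.0% and 42.6% of them had a UMI. Lrrk1, which encodes a leucine-rich repeat kinase, stood at 26.2 CPM in Gfp-low and 39.6 CPM in Gfp-high cells, with a UMI in 39.7% and 45.4%.

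In the main comparison the log2 ratios, -0.60 for Tgfb1 and -0.59 for Lrrk1, lay only just past 1.5-fold. In the cells with under 100 Gfp CPM they were -0.29 for Tgfb1 and -0.30 for Lrrk1, inside 1.5-fold. Tgfb1 was also inside after thinning to 10000 UMIs (-0.16), with cells weighted alike (-0.54) and with Pth at least 10% of UMIs (-0.57). Of the 9 planned settings within replicate 2, most put Tgfb1 inside 1.5-fold, and Lrrk1 was inside in fewer. Both had the same direction in replicate 1. Tgfb1 had 12.7 CPM in cells under 1000 and 25.99 CPM at or above, and Lrrk1 had 18.7 under and 46.3 at or above. Both genes were more abundant in the cells below 5% Pth, at 79.7 CPM for Tgfb1 and 94.6 for Lrrk1. The part of RNA from such cells in these differences was not tested.

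Rnase4, a secreted ribonuclease gene, stood at 35.1 CPM in Gfp-low and 53.1 CPM in Gfp-high cells. The angiogenin gene Ang, from the same locus, stood at 10.7 in Gfp-low and 16.4 in Gfp-high cells. In replicate 1 the ratios were near 1 or above it: Rnase4 had 47.5 under 1000 and 45.4 at or above, and Ang 15.4 and 13.0. Stmn1, which encodes the microtubule-destabilising protein stathmin, stood at 15.96 CPM in Gfp-low and 26.1 in Gfp-high cells. In Gfp-high cells 5 cells held 28.5% of its UMIs, and in replicate 1 its order was the other way, with 43.5 under 1000 and 18.03 at or above. There 1 cell held 48 of the 65 UMIs under 1000, and without it the level was 11.9 CPM, below that of the cells at or above.

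Genes of antigen presentation by MHC class II had the ratios furthest from 1, and they came from very few cells. Of 18 antigen presentation genes tested, 4 counted as lower and 0 as higher, with a median log2 ratio of -0.04. Over all tested genes 0.201% counted as lower and 0.213% as higher. Cd74, the invariant chain, stood at 4.83 CPM in Gfp-low cells and 64.3 CPM in Gfp-high cells, a log2 ratio of -3.74. Over the Gfp classes of replicate 2, from lowest to highest Gfp, Cd74 was 5.71, 4.23, 62.1, 6.39 and 81.2 CPM, with no order. H2-Aa stood at 2.31 and H2-Eb1 at 2.31 in Gfp-low cells, against 26.7 for H2-Aa and 25.9 for H2-Eb1 in Gfp-high cells. Of the 3708 Cd74 UMIs in Gfp-high cells, 89.9% lay in 7 of the 1797 cells, and no Gfp-low cell had over 2.

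Without cells that had at least 10 UMIs, Cd74 was 4.83 CPM in Gfp-low and 6.55 CPM in Gfp-high cells. The macrophage markers summed to 3.99 CPM in Gfp-low and 31.5 in Gfp-high cells, with 2 of 8 at 0 in Gfp-low cells. Leaving out the 8 Gfp-high cells with at least 10 UMIs of Cd74 or of the C1q genes, a step chosen after seeing the data, left 9 genes lower past 1.5-fold in place of 16. Of those 9 genes, 8 were among the 16. H2-Ab1 then had a log2 ratio of 0.62, against -0.93 with all cells.

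Apoe, the apolipoprotein E gene, and Igfbp7, a secreted growth factor-binding protein gene, were lower in Gfp-low cells with a like pattern. Apoe stood at 11.8 CPM in Gfp-low and 30.02 in Gfp-high cells, and 21 Gfp-high cells held 74.2% of its Gfp-high UMIs. Over the Gfp classes of replicate 2 it was 8.82, 13.8, 84.9, 8.93 and 36.2 CPM, with no order, and all cells under 1000 together had 60.3 CPM, above the Gfp-high cells. Igfbp7 stood at 10.3 in Gfp-low and 20.5 in Gfp-high cells, with 81.7% of the Gfp-high UMIs also in 21 cells. In Gfp-low cells 2 cells held 69.4% of its UMIs. Without cells that had at least 10 UMIs of the gene, Igfbp7 was 3.21 CPM in Gfp-low and 3.82 in Gfp-high cells. Apoe, treated likewise, was 7.28 CPM in Gfp-low and 7.87 in Gfp-high cells. Gm43305, an unnamed locus singled out for its ratio, stood at 23.9 CPM in Gfp-low and 79.4 in Gfp-high cells. The middle class of replicate 2 had 87.9 CPM, more than the Gfp-high cells, and the cells at 1000 to 2000 Gfp CPM had 64.1. In replicate 1 it had 27.4 CPM under 1000 and 33.6 at or above, and the interval of that ratio included 1.

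The counts of the gene groups that follow are over members with a mean of at least 10 CPM, and since 0.213% of all genes counted as higher and 0.201% as lower, a count of 0 in a group is what the background gives and is no result about that group. Below that level, Rgs5, a regulator of G protein signalling on the calcium sensing list and a pericyte marker, stood at 0.210 CPM in Gfp-low cells, which is 1 UMI, and 2.79 CPM in Gfp-high cells; it was singled out after its values were seen. Among 15 parathyroid markers tested, 0 counted as higher and 0 as lower, with a median log2 ratio of 0.00 beside 0.02 over all genes. Gata3, a transcription factor gene of the developing gland, had the highest of these ratios, with 423 CPM in Gfp-low and 381 in Gfp-high cells (log2 0.15). Eya1, a coactivator gene of pharyngeal pouch development, had the lowest, at 160 in Gfp-low and 174 in Gfp-high cells.

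Casr stood at 337 CPM (321 to 354) in Gfp-low cells and 308 CPM (304 to 313) in Gfp-high cells, a log2 ratio of 0.13. Over the Gfp classes of replicate 2 it was 348, 330, 336, 324 and 303 CPM. Kl, which encodes klotho, stood at 780 in Gfp-low and 801 in Gfp-high cells, and Vdr, the vitamin D receptor gene, at 306 and 309. None of the 20 genes tested for calcium sensing, vitamin D and klotho counted in either direction, and their median log2 ratio was -0.02.

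None of 15 secretory granule genes, 33 genes of protein folding in the endoplasmic reticulum, 60 nuclear genes of oxidative phosphorylation or 20 of glycolysis and hypoxia lay past 1.5-fold. Their median log2 ratios were 0.00, -0.01, -0.04 and -0.02. Gnas, an imprinted gene for the stimulatory G protein, stood at 12794 CPM in Gfp-low cells and 12352 in Gfp-high cells. None of 27 imprinted genes counted, with a median log2 ratio of 0.05.

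Immediate early genes, which respond within minutes to stimuli and to tissue digestion had a median log2 ratio of -0.13 over the 29 tested, beside 0.02 over all genes, and 0 of them counted in either direction. Jun, an AP-1 transcription factor gene, stood at 1289 CPM in Gfp-low and 1671 in Gfp-high cells (log2 -0.37). Egr1 stood at 302 in Gfp-low and 365 in Gfp-high cells, and Fos at 1637 and 1690.

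Of 29 genes of transgene silencing and DNA methylation tested, 0 counted, and the median log2 ratio was 0.08. Dnmt1, the maintenance DNA methyltransferase gene, stood at 17.8 CPM in Gfp-low and 21.1 in Gfp-high cells, and Mbd1, a methylated DNA-binding protein gene, at 35.7 and 28.6.

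Of 12 interferon-stimulated genes 0 counted, and Ifitm3 stood at 254 CPM in Gfp-low and 272 in Gfp-high cells. Of 10 cell cycle genes 1 counted as lower, the Stmn1 described above.

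Both pools could be compared only at the wider limit, since 2 Gfp-low cells of replicate 1 are too few to sum. Cells under 1000 Gfp CPM (446 in replicate 2, 43 in replicate 1) were tested against those at or above it (1797 and 630) with edgeR's quasi-likelihood test on sums per library, a comparison added after seeing the data. With the library as a block, 1 residual degree of freedom remained. Of 14406 genes, 4 were called higher (0.0278%) and 1 lower (0.00694%) at a Benjamini-Hochberg adjusted p of 0.05. At an unadjusted p of 0.05, 346 of the 14406 genes passed, a share below 0.05, so this count is no sign of further differences.

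Spp1 was the gene called lower. It had 294 CPM under 1000 and 615 at or above in replicate 2, and 301 and 443 in replicate 1. The edgeR log2 fold change was -0.88 (SE 0.084, adjusted p = 0.000124). DESeq2 called it too (adjusted p = 3.94e-10).

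Among genes called higher, Hhip encodes a decoy receptor of hedgehog ligands. It had 33.7 CPM under 1000 and 19.1 at or above in replicate 2, and 16.7 and 8.98 in replicate 1 (edgeR log2 fold change 0.82, SE 0.13, adjusted p = 0.0288). In Gfp-low cells alone Hhip stood at 23.1 CPM, against 19.1 CPM in Gfp-high cells, and the middle class of replicate 2 was higher than either, at 39.0 CPM. Galntl6, a member of the N-acetylgalactosaminyltransferase family, had 168 CPM under 1000 and 110 at or above in replicate 2, and 195 and 156 in replicate 1 (edgeR log2 fold change 0.49, SE 0.073, adjusted p = 0.0222). Nkain2, a sodium pump-interacting protein gene, had 47.0 under and 30.9 at or above in replicate 2, and 64.3 and 39.9 in replicate 1 (edgeR log2 fold change 0.62, SE 0.097, adjusted p = 0.0288). In Gfp-low cells alone Galntl6 stood at 152 CPM, against 110 in Gfp-high cells, a log2 ratio of 0.26 without the cell of most UMIs in each class. Nkain2 stood at 36.3 CPM in Gfp-low and 30.9 in Gfp-high cells; without those cells its log2 ratio was -0.28, and a UMI was found in 13.5% of Gfp-low and 17.3% of Gfp-high cells. DESeq2 called none of these 3, with adjusted p-values of 0.239 to 1.00.

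Serpinb12 was also called higher, by edgeR (log2 fold change 1.30, SE 0.11, adjusted p = 2.22e-05) and by DESeq2 (adjusted p = 5.49e-07). In replicate 1, however, 1 cell held 66 of its 71 UMIs under 1000. Without the top cell of each class, its level there was 3.45 CPM under 1000 and 17.0 CPM at or above. With the top cell of each sum left out, edgeR still called Serpinb12 higher (log2 fold change 0.89, adjusted p = 4.37e-09). That call therefore does not mean that both pools had the same direction.

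Pcdh9 did not pass this test (edgeR log2 fold change 0.54, adjusted p = 0.332), nor did tdTomato (-0.05, adjusted p = 1.00) or Cd74 (-0.75, adjusted p = 0.0539). Without the cell of most UMIs of each gene in each sum, edgeR called Pcdh9 higher (log2 fold change 0.46, adjusted p = 7.38e-05). It then called Cd74 lower (-2.71, adjusted p = 1.84e-66). That step takes 1 cell from sums of 43 and 446 cells as it does from 630 and 1797, so it weighs more on the smaller class. In replicate 1 Pcdh9 had 163 CPM under 1000 and 166 at or above, and 1 cell held 69 of its 243 UMIs under 1000. Its call therefore does not mean that both pools had the same direction. Of the 33 genes past 1.5-fold in replicate 2, 22 had the same sign in replicate 1 between cells under and at or above 1000. The like share over all tested genes was not taken, so this count cannot show agreement between the pools. Some of these ratios rest on few UMIs, and H2-Eb1 had 4 under 1000 in replicate 1.

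**Figure D5:**
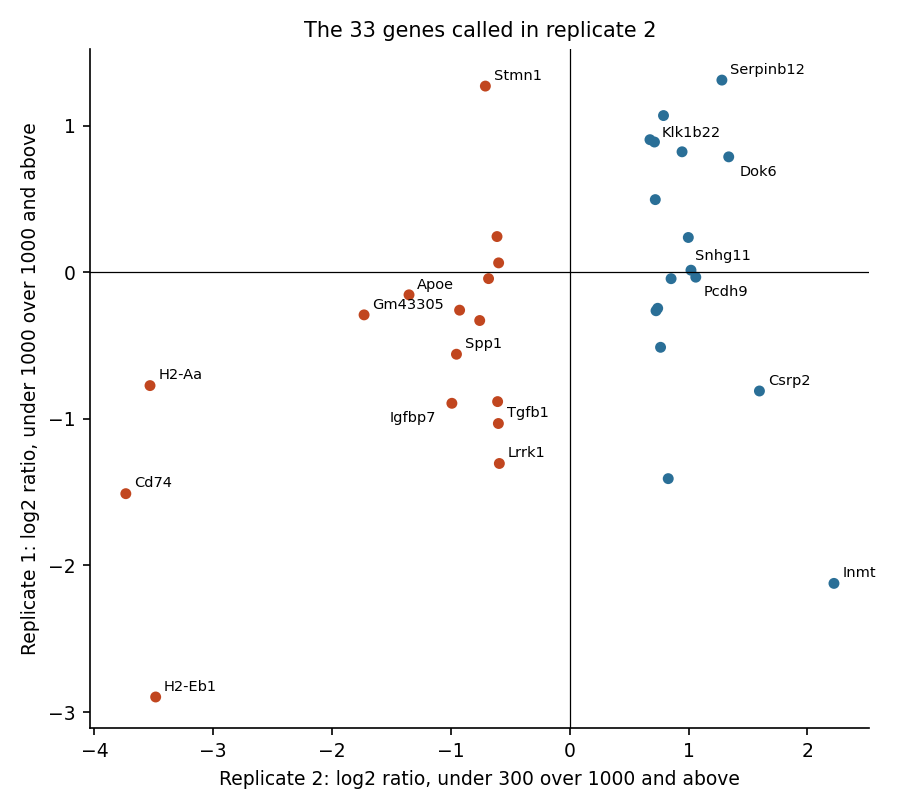
Log2 ratios of the 33 genes past 1.5-fold in replicate 2 (horizontal, Gfp-low over Gfp-high) against the ratio of cells under over cells at or above 1000 Gfp CPM in replicate 1 (vertical). Spp1, Tgfb1 and Lrrk1 are lower in both, while Pcdh9 and Snhg11 lie near 0 in replicate 1 and Stmn1 has opposite signs with 1 cell holding 48 of its 65 UMIs under 1000 in replicate 1.

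By other genes, most neighbours of Gfp-low cells were not Gfp-low, but Gfp-low neighbours were somewhat more frequent around Gfp-low than around Gfp-high cells. Among the 15 nearest neighbours of each parathyroid cell by 2000 variable genes, Gfp-low cells made up a mean of 6.97% around Gfp-low cells and 5.42% around Gfp-high cells. Their share of all parathyroid cells was 6.95%. No Gfp-low neighbour was found for 34.6% of Gfp-low and 44.2% of Gfp-high cells.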

How the data were processed

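The authors deposited unnormalised UMI counts for each gene and barcode. Cell Ranger 7.0.0 and mm10 are named in the submitters' processing notes. The calling of barcodes as cells, and the addition of the Gfp and tdTomato sequences to the reference, are not given in the sources used here. Counts were used as deposited, at 41517620 and 88283761 UMIs per library. Of 32287 entries, 32235 matched GENCODE vM21 (GRCm38), which gave chromosomes and positions.

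The members and the gene lists were chosen with earlier results of these data known. The p-values rest on 2 pools of mice with 1 residual degree of freedom. Their spread is estimated largely across genes, so it is not each gene's own spread between the pools. UMI counts were summed over the cells of each Gfp class and given as CPM, UMIs per 1000000. Ratios of Gfp-low over Gfp-high have exact conditional binomial 95% intervals, levels have exact Poisson ones and shares Clopper-Pearson ones, all for counting error only. Genes on the sex chromosomes and the mitochondrial genome, Gfp and Pth were left out of the counts past 1.5-fold. A test of Gfp-low against Gfp-high sums over both libraries had been planned and was not made, because replicate 1 held under 10 Gfp-low cells. The test at 1000 CPM in its place used edgeR 4.0.16 (TMM, filterByExpr, quasi-likelihood test) in R 4.3.3, with DESeq2 1.42.0 as an alternative. Each SE printed is the absolute log2 fold change over the square root of the F value of edgeR's test. It is derived from that test and is not a separate estimate of spread between the pools. Sparse matrices were handled with scipy 1.17.1, and neighbours and doublet scores came from scanpy 1.11.5. Cells with high doublet scores were not removed. Cells had been gated against doublets by flow cytometry, per the labels' protocols. That gate does not exclude barcodes with RNA of more than 1 cell, and 1 Gfp-low cell had 649 fibroblast marker UMIs.

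Named genes were up to 12 of the largest log2 ratios each way among genes past 1.5-fold, with at least 20 CPM and a UMI in at least 10% of cells of the higher class. Unnamed loci were left out of this rule, which gave 14 genes. From each list up to 4 members past 1.5-fold and the most abundant other member were added. Both procedures were tested on simulated data with known changes. The simulations held no genes whose UMIs lie mostly in a few cells, so they do not show how the procedures treat such genes.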

Additional observations from a re-analysis of the deposited data

How the results depend on the processing

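The 17 genes higher and 16 lower past 1.5-fold depended on the limits. With Gfp-low cells below 100 CPM the counts were 61 higher and 75 lower, of which 9 and 13 were among the original genes. Thinning each cell to 10000 UMIs gave 44 and 70, a minimum mean of 5 CPM 47 and 56, a minimum of 50 CPM 1 and 2, no minimum 111 and 247, and a 2-fold limit 3 and 5. Without Pth and mitochondrial UMIs in the total, 28 genes were lower. Without the cells rich in Cd74 or C1q UMIs, 9 were lower. In replicate 1 alone, with 2 Gfp-low cells, the counts were 8 and 66, and with its 43 cells under 1000 they were 38 and 153. The cause of the larger counts was not tested.

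The share of Gfp-low cells was 2.81% below 100 CPM, 10.6% below 500 and 0.297% in replicate 1. The tdTomato log2 ratio of -0.06 became -0.036 below 100, 0.17 for the 2 cells of replicate 1 and -0.040 for its cells under 1000. For the 14 named genes, 126 log2 ratios under 9 planned settings within replicate 2 had 0 changes of sign, and 99 stayed within counting error; 20, from 8 genes, fell inside 1.5-fold. Among these, below 100 CPM, were Synpo2 (0.39), Tgfb1 (-0.29) and Lrrk1 (-0.30). After thinning they included Nav3 (0.54), Igfbp7 (-0.45), H2-Ab1 (-0.43) and Tgfb1 (-0.16), at doublet scores under 0.25 H2-Ab1 (-0.37), and with cells weighted alike Stmn1 (-0.36). Tgfb1 fell inside 1.5-fold in most of the 9 settings. In replicate 1, cells under 1000 gave opposite signs for Pcdh9 (-0.033), Synpo2 (-0.043), Nav3 (-0.26), Stmn1 (1.27) and Rnase4 (0.065); that of Stmn1 rests on 1 cell, without which it had 11.9 CPM under and 18.03 at or above 1000. H2-Ab1 changed sign in the 2 Gfp-low cells of replicate 1 (0.75) and without the cells rich in Cd74 or C1q UMIs (0.62).

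The edgeR calls between cells under and at or above 1000, 4 higher and 1 lower, became 35 and 28 without a filter. Without the library as a block they became 0 and 0, with 103 of 14406 genes at an unadjusted p of 0.05, a share below 0.05. Leaving out the cell of most UMIs of each gene in each sum, a step that weighs more on the smaller class, gave 15 and 14. DESeq2 gave 1 and 1. The library block is the paired fit here, since both classes of cells come from each library. The 156 cells and their 4762294 UMIs limit what can be seen: at 10 CPM a gene has under 50 UMIs in the Gfp-low sum.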

Other observations

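Transcripts of Y-linked genes and Xist were scarce in parathyroid cells of both classes, so comparing them could not tell the sex of the cells. Both pools held males and females. A UMI of Ddx3y, Uty, Kdm5d or Eif2s3y was found in 8 of 156 Gfp-low cells (5.13%, 95% interval 2.24 to 9.85) and in 72 of 1797 Gfp-high cells (4.01%, 3.15 to 5.02) of replicate 2. In Gfp-low cells these were 12 UMIs of Ddx3y and 14 of Uty, with 0 of Kdm5d and 0 of Eif2s3y. In the middle class, 23 of 290 cells (7.93%, 5.09 to 11.7) had a UMI of any of these genes. Xist, the RNA that coats an inactive X chromosome, stood at 2.31 CPM in Gfp-low cells and 1.44 in Gfp-high cells, against 171 CPM in the cells below 5% Pth.

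Long genes leaned higher in Gfp-low cells of replicate 2 and lower in the cells under 1000 of replicate 1. The 147 tested genes longer than 400 kb had a median log2 ratio of 0.10 in replicate 2, and the 811 genes up to 5 kb one of -0.02. In replicate 1 the medians were -0.10 for the longest and 0.01 for the shortest genes. Pcdh9 and Nav3 are both long genes; whether gene length has a part in their ratios was not tested.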
